A study of Mus musculus with 8 samples.

Results

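Expression of 44 cell cycle genes, 20 of S phase and 24 of mitosis, was examined in single cells from the cortical injury site 6 days after photothrombosis (PT). The genes were chosen by symbol from the 21848 genes listed in each library, and all 44 were found. Their UMIs (unique molecular identifiers, which count captured RNA molecules) were taken from droplets with at least 2000 UMIs and less than 20% mitochondrial UMIs. The tissue came from the right sensorimotor cortex and held the injury site with spared tissue around it. Meninges and myelin had been removed, and cells were not enriched or sorted. 

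All mice had PT and a subcutaneous osmotic minipump, implanted 2 days before injury. The pumps delivered saline in 4 control mice and ancrod, which depletes fibrinogen, in 4 mice, at a daily dose stated as 2.4 U and as 2.0 mg per kg of body weight, until perfusion. The labels give all 8 mice as female Bl/J6 and state no age, whereas the methods of the study name another C57BL/6 substrain and mice of either sex, a disagreement left unresolved here. Each mouse gave 1 library, and injury and sequencing batch 1 held 3 saline and 3 ancrod mice, batch 2 the remaining mouse of either treatment. There was no uninjured mouse, so the values show division at the injury site and not its change by injury.

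Division of a cell begins with licensing of DNA replication, in which Cdc6 and Cdt1 load the Mcm2 to Mcm7 helicase onto origins in G1. E2F transcription factors, released from RB proteins by cyclin-dependent kinases, then switch on genes for nucleotide supply and DNA synthesis. In G2, genes of mitosis are switched on by the MuvB complex with B-Myb (Mybl2) and FoxM1, and their products condense chromosomes, build the spindle and, through Cdc20 and Ube2c, end mitosis. In an ischemic cortex, microglia, invading macrophages and T cells, reactive astrocytes and perivascular fibroblasts (PVFs) are known to divide, whereas neurons do not.

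These programs leave short sequence marks in promoters. The 200 bases before the start of 2 S-phase helicase genes and 2 mitotic genes are shown, since they carry the marks most clearly, 5′ to 3′ on the strand of the gene, from the GRCm39 genome and the canonical transcript starts of GENCODE vM39. Capitals mark an E2F site (TTTCCCGC, TTTGGCGC, TTTGCCGC or TTTCGCGC), the cell cycle homology region CHR (TTTGAA or TTCGAA) bound by MuvB, or a CCAAT box bound by NF-Y, on either strand. They lie at chr8:75835940-75836139 (plus strand) for Mcm5, chr1:128287453-128287652 (minus) for Mcm6, chr10:69188769-69188968 (minus) for Cdk1 and chr11:98915042-98915241 (minus) for Top2a. E2F matches overlap each other in Mcm5 and in Mcm6.
Mcm5: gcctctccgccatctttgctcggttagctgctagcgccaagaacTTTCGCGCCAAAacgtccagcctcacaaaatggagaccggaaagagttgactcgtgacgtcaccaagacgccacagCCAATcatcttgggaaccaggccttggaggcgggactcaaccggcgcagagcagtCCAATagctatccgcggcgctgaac
Mcm6: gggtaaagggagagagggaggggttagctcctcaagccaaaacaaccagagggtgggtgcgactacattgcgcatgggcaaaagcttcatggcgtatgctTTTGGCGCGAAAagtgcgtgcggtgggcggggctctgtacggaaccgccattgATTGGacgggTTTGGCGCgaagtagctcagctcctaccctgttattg
Cdk1: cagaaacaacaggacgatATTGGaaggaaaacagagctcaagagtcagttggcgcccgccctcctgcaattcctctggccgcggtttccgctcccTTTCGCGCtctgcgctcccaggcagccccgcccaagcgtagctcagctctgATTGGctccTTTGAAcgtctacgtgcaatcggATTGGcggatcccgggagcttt
Top2a: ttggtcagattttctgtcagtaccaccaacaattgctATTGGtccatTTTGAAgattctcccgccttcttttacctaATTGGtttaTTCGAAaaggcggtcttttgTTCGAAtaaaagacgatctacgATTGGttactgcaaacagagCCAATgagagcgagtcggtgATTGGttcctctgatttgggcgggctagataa

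In the window from 250 bases before to 50 bases after the start, an E2F match was found in 8 of 20 S-phase genes (40.0%), in 1 of 24 mitotic genes (4.17%, Cdk1) and in 2.83% of 21616 protein-coding genes. CHR showed the opposite distribution, with 10.0% of the S-phase genes, 62.5% of the mitotic genes and 18.7% of all genes. A CHR together with a CCAAT box was present in 14 of 24 mitotic genes (58.3%), against 8.24% of all genes. A CCAAT box, with or without a CHR, was present in 12 of 20 S-phase and 18 of 24 mitotic genes, with 40.0% of all genes. The matches describe letters only. Rrm2 had a CHR and a CCAAT box and no E2F match in this window, and Mki67 and Ccnb1 had neither E2F nor CHR.

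After removal of 2144 predicted doublets, 44072 cells remained of 46216 droplets. The control libraries held 97861434 to 122758649 UMIs and the ancrod libraries 126682918 to 142139441, without overlap. Libraries shared 3 to 15 cell barcodes per pair, at most 0.295% of the smaller library. Cells were clustered without the 44 genes, other cell cycle genes and genes correlated with them (r above 0.2, marker genes excepted). The 541 genes in all were left out to limit the part of division in the classes. Clusters were named from marker genes. The largest classes were microglia-like (19055 cells), endothelial-like (7046), monocyte/macrophage-like (4360), astrocyte-like (4219) and fibroblast-like cells (2280), followed by mural cell-like (1329), border-associated macrophage-like (977), T/NK cell-like (718), neutrophil-like (705) and neuron-like cells (373), while 2713 cells stayed unnamed. These names were rebuilt here and can differ from the annotation of the study.

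Among named classes with at least 20 cells in at least 6 mice, T/NK cell-like and border-associated macrophage-like cells held the most cell cycle RNA per UMI. Border-associated macrophages are resident macrophages of meninges and perivascular spaces, marked by Mrc1, Lyve1 and Cd163. Counts were summed per mouse and class and expressed as CPM, counts scaled to the same UMI total in each sum. The summed S-phase genes reached 970 ± 233 CPM in T/NK cell-like cells and 693 ± 142 CPM in border-associated macrophage-like cells (SD, n = 8 mice). The next classes lay close together, with 359 ± 138 CPM in astrocyte-like, 351 ± 49.5 CPM in monocyte/macrophage-like and 342 ± 120 CPM in fibroblast-like cells, and these did not differ beyond their spread. Microglia-like cells were at 265 ± 27.8 CPM, endothelial-like cells at 209 ± 46.4 CPM and mural cell-like cells at 182 ± 42.4 CPM. These means pool both treatments. Fibroblast-like cells alone averaged 247 ± 43.3 CPM in control and 438 ± 87.5 CPM in ancrod mice. Microglia-like cells averaged 270 ± 28.4 and 259 ± 30.3 CPM in the same order. Neuron-like cells were lowest, at 57.0 ± 17.0 CPM (n = 6 mice with at least 20 such cells). Droplets with at most 100 UMIs, which hold free RNA, gave 317 ± 36.0 CPM, above the means of microglia-like, endothelial-like, mural cell-like, neutrophil-like and neuron-like cells, and the means of astrocyte-like, monocyte/macrophage-like and fibroblast-like cells lay within their spread of it.

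The mitotic genes changed this order. Hmgb2, an abundant chromatin protein that many resting cells also express, was left out of their sum. T/NK cell-like cells again came first (1338 ± 500 CPM), then border-associated macrophage-like cells (986 ± 217 CPM), fibroblast-like cells (813 ± 367 CPM) and astrocyte-like cells (778 ± 328 CPM), the last 3 within their spread of each other. By treatment, fibroblast-like cells averaged 591 ± 166 CPM in control and 1036 ± 393 CPM in ancrod mice. Astrocyte-like cells averaged 839 ± 269 and 716 ± 411 CPM in the same order. Over both treatments, monocyte/macrophage-like cells had 503 ± 119 CPM and microglia-like cells 277 ± 59.8 CPM. Endothelial-like cells had 230 ± 111 CPM, mural cell-like cells 85.8 ± 102 CPM and neuron-like cells 20.4 ± 6.54 CPM. Free RNA held 395 ± 94.7 CPM. In 144 neuroblast-like cells, of which 4 mice had enough, the S-phase sum was 633 ± 365 CPM and the mitotic sum 2207 ± 1924 CPM. These spreads were too wide to place the class.

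**Figure D1:**
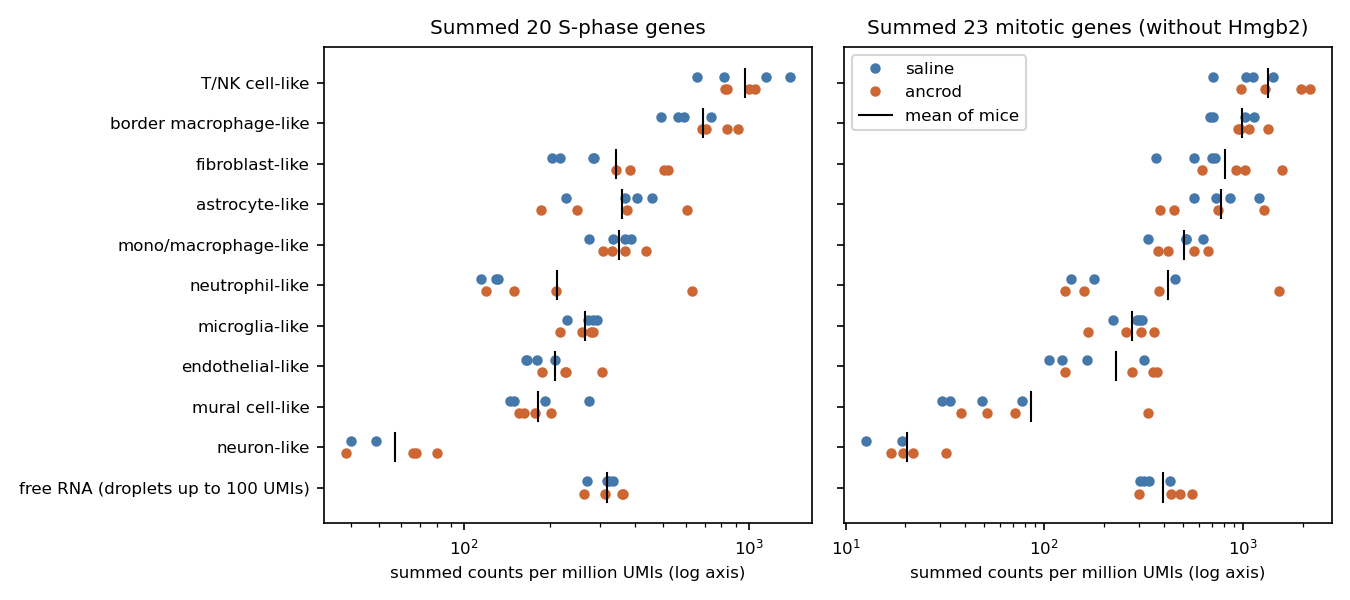
Summed CPM (log axis) of the 20 S-phase genes and of the 23 mitotic genes without Hmgb2 in each cell class, with 1 point per mouse in saline and ancrod and a line at the mean of the mice. T/NK cell-like and border-associated macrophage-like cells lie highest among the large classes and neuron-like cells lowest.

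The ratio of the S-phase to the mitotic sum therefore differed between classes. The S-phase sum was 0.445 ± 0.104 of the mitotic sum in fibroblast-like cells and 0.474 ± 0.0708 in astrocyte-like cells, and these were the lowest ratios among classes measured in all 8 mice. The ratio was 0.716 ± 0.108 in monocyte/macrophage-like and 0.717 ± 0.140 in border-associated macrophage-like cells. It was 0.985 ± 0.170 in microglia-like cells, 1.06 ± 0.374 in endothelial-like cells and 3.45 ± 1.64 in mural cell-like cells. The highest fibroblast-like value of any mouse (0.555) lay below the lowest microglia-like value (0.727). The S-phase sum kept Pcna, of which 22.0% of thinned UMIs lay in the scored cells described below, whereas Hmgb2 (37.3%) was left out. The mitotic sum kept Kif23 (34.4%), which alone gave 63.7 of the 230 CPM in endothelial-like cells. In mural cell-like cells Pcna alone gave 53.4 of the 182 CPM. The part of RNA from unscored cells in these ratios was not tested.

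Genes within a role followed this order with exceptions, when the 10 classes with enough cells in at least 6 mice were ranked for each gene. All licensing and helicase genes but Gins2 were highest in T/NK cell-like cells. For Mcm5, a helicase subunit (ENSMUSG00000005410, chr8:75836140-75856231), the means were 50.9 ± 17.95 CPM in T/NK cell-like, 31.2 ± 8.48 CPM in border-associated macrophage-like, 13.8 ± 3.57 CPM in monocyte/macrophage-like and 13.4 ± 6.06 CPM in fibroblast-like cells. Microglia-like cells had 8.24 ± 1.46 CPM, astrocyte-like cells 7.48 ± 4.13 CPM, endothelial-like cells 5.13 ± 2.95 CPM and neuron-like cells 0.787 ± 1.14 CPM of Mcm5. Neighbouring classes from astrocyte-like to mural cell-like cells (3.23 ± 2.84 CPM) lay within their spread of each other, and free RNA held 9.96 CPM of Mcm5.

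Rrm2, the small subunit of ribonucleotide reductase that supplies deoxynucleotides (ENSMUSG00000020649, chr12:24757811-24764145), ordered the classes differently. It was highest in astrocyte-like cells (66.2 ± 37.8 CPM) and T/NK cell-like cells (54.0 ± 28.2 CPM), then in border-associated macrophage-like (33.7 ± 13.4 CPM) and fibroblast-like cells (28.8 ± 17.3 CPM). Microglia-like cells had 9.12 ± 2.21 CPM, and Rrm2 was not detected in neuron-like cells of 6 mice. Pcna, the sliding clamp of DNA polymerase, was spread far more evenly, from 190 ± 20.7 CPM in border-associated macrophage-like cells to 53.4 ± 8.76 CPM in mural cell-like and 21.3 ± 11.6 CPM in neuron-like cells, with 106 CPM in free RNA. E2f1 was highest in border-associated macrophage-like cells (27.1 ± 6.65 CPM), as was E2f8, a repressor of E2F targets (13.6 ± 5.41 CPM). Ccne2, a cyclin of S-phase entry, was highest in T/NK cell-like cells (21.1 ± 7.26 CPM).

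Among mitotic genes, Mki67, whose product coats mitotic chromosomes (ENSMUSG00000031004, chr7:135291513-135318299), was at 143 ± 53.6 CPM in T/NK cell-like and 95.3 ± 13.3 CPM in border-associated macrophage-like cells. It was at 45.4 ± 12.2 CPM in monocyte/macrophage-like, 41.3 ± 16.6 CPM in fibroblast-like, 35.7 ± 18.3 CPM in astrocyte-like, 27.4 ± 5.81 CPM in microglia-like, 11.4 ± 8.05 CPM in endothelial-like and 2.01 ± 2.98 CPM in mural cell-like cells. Top2a, which untangles replicated DNA, was highest in the same leading class (223 ± 68.3 CPM) and reached 86.6 ± 37.0 CPM in astrocyte-like and 78.4 ± 42.9 CPM in fibroblast-like cells. Cdk1, the kinase that drives mitosis, was at 64.2 ± 18.02 CPM in border-associated macrophage-like, 54.5 ± 30.7 CPM in fibroblast-like, 54.0 ± 22.6 CPM in T/NK cell-like and 53.4 ± 21.4 CPM in astrocyte-like cells, which overlapped. Its partner Ccnb1 was highest in astrocyte-like cells (37.5 ± 17.3 CPM) and next in fibroblast-like cells (25.3 ± 12.9 CPM).

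Several mitotic genes had their highest class mean in fibroblast-like cells. These were Cdc20, the activator of the anaphase-promoting complex (33.1 CPM), Kif20a, a kinesin of the spindle midzone (14.3 CPM), Aurka, a centrosomal kinase (11.4 CPM), and Ccnb2 (41.9 CPM). The next class was at 30.5 CPM for Cdc20 (astrocyte-like) and 38.6 CPM for Ccnb2 (T/NK cell-like). Border-associated macrophage-like cells came next for Kif20a (10.8 CPM) and Aurka (11.2 CPM). These means pool both treatments, and the leads were not tested. The edgeR log2 fold changes of Cdc20 and Ube2c, ancrod over control, were 0.87 to 1.01 in fibroblast-like cells. In astrocyte-like cells they were -0.05 to 0.14. The part of the ancrod mice in these leads was not tested. The summed mitotic exit genes, Cdc20 and Ube2c, were at 122 ± 71.8 CPM in T/NK cell-like, 108 ± 62.0 CPM in fibroblast-like and 101 ± 42.3 CPM in astrocyte-like cells, within their spread of each other. Tpx2, Prc1 and Cenpf were highest in astrocyte-like cells. Kif23, a kinesin of the midzone, departed from all others, with 80.7 ± 29.3 CPM in neutrophil-like cells (n = 7) and 63.7 ± 23.8 CPM in endothelial-like cells, against 6.62 ± 0.923 CPM in microglia-like cells.

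**Figure D2:**
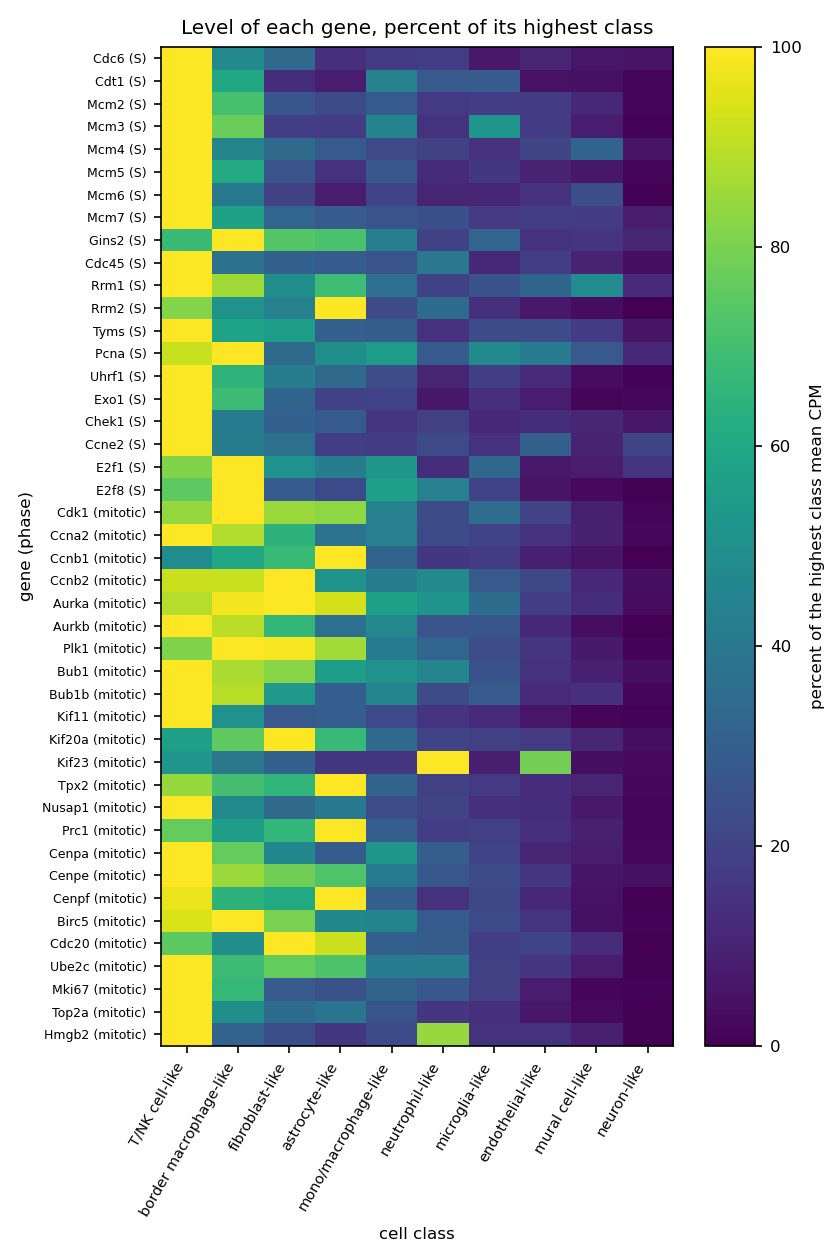
Mean CPM of each of the 44 genes in each class, as percent of that gene's highest class. Most rows peak in T/NK cell-like or border-associated macrophage-like cells, and the row of Kif23 peaks in neutrophil-like cells.

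The test of class differences was restricted to Mki67 and Mcm5 and compared each class with microglia-like cells of the same mouse by a two-sided exact sign-flip permutation test of log2(CPM + 1), adjusted by the Benjamini-Hochberg method over 9 classes. Mki67 was higher in border-associated macrophage-like cells by 1.78 (SD 0.45, log2, in 8 of 8 mice, exact permutation adjusted p = 0.0176), in T/NK cell-like cells by 2.28 (SD 0.71, 8 of 8, adjusted p = 0.0176) and in monocyte/macrophage-like cells by 0.69 (SD 0.58, 7 of 8, adjusted p = 0.0422). It was lower in endothelial-like cells (log2 difference -1.48, higher in 0 of 8 mice, adjusted p = 0.0176), mural cell-like cells (-3.73, 0 of 8, adjusted p = 0.0176) and neuron-like cells (-3.81, 0 of 6, exact permutation adjusted p = 0.0469). Fibroblast-like (0.51, SD 0.71, 6 of 8, adjusted p = 0.1205), astrocyte-like (0.22, SD 0.64, 6 of 8, adjusted p = 0.3867) and neutrophil-like cells (-0.15, SD 1.37, 3 of 7, adjusted p = 0.7969) did not pass, which does not show that they were alike.

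Mcm5 gave the same 6 classes past the threshold. The log2 differences were 1.77 in border-associated macrophage-like and 2.43 in T/NK cell-like cells (8 of 8 mice each, exact permutation adjusted p = 0.0234) and 0.66 in monocyte/macrophage-like cells (7 of 8, adjusted p = 0.0352). They were -0.69 in endothelial-like (higher in 1 of 8 mice, adjusted p = 0.0422), -1.44 in mural cell-like (0 of 8, adjusted p = 0.0234) and -2.55 in neuron-like cells (0 of 6, adjusted p = 0.0469). Fibroblast-like cells were higher in 7 of 8 mice, by 0.55 (SD 0.67), without passing (exact permutation adjusted p = 0.0603). By treatment, the fibroblast-like difference averaged 0.07 in control and 1.03 in ancrod mice for Mcm5, and 0.12 and 0.90 for Mki67. With a coarser clustering (Leiden resolution 1), the sign for monocyte/macrophage-like cells turned, to -0.32 for Mki67 and -0.31 for Mcm5. Neuron-like cells no longer passed there, at -3.83 and -2.63. In that clustering a cluster led by H2-Eb1 and H2-Aa, with 139 CPM of Mki67, stayed unnamed. Its marker score was 0.854 for dendritic cells and 0.651 for monocyte/macrophage cells. The part of this cluster in the turn was not tested. With doublets kept, fibroblast-like cells passed for both genes, at 0.74 and 0.77.

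Levels differed between the clusters of a class in the examples that follow. Among astrocyte-like cells, Mki67 averaged 126 and 75.7 CPM in clusters led by Fabp7 and Igfbp2, together with the reactive astrocyte gene Gfap, and 1.09 CPM in a cluster of 1843 cells led by Gpc5 and the glutamate transporter gene Slc1a2. Among microglia-like cells, the cluster led by Cd5l, Igf1 and Lpl had 70.2 CPM, and that led by P3h2 and Csmd3, with P2ry12 among its leading genes, had 1.40 CPM. Such clusters were chosen here after their values had been seen, and no test was made.

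Clusters of vessels, macrophages and fibroblasts were compared in the same way. Endothelial-like cells with the venule genes Ackr1 and Selp had 25.9 CPM of Mki67, and those with the capillary gene Car4 had 0.755 CPM. In monocyte/macrophage-like cells the cluster led by the antigen presentation gene H2-Eb1 and by S100a4 had 179 CPM, and the cluster led by Gpnmb 23.7 CPM. In fibroblast-like cells the cluster led by the collagen genes Col1a1 and Col1a2, with the protease gene Mmp3, had 66.7 CPM of Mki67, 486 CPM of summed S-phase and 1311 CPM of summed mitotic genes, against 27.7, 246 and 537 CPM in the cluster led by Col18a1.

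To count cells with cell cycle RNA at equal depth, each cell was thinned to 5000 UMIs, which left out 7563 shallower cells of the 44072. The loss was uneven, with 379 of 705 neutrophil-like, 498 of 1329 mural cell-like, 1299 of 4219 astrocyte-like and 98 of 2280 fibroblast-like cells. It took 755 control and 222 ancrod cells of the endothelial-like class, and 406 and 893 of the astrocyte-like class. The part of this loss in the shares was not tested. A cell was scored for S phase or mitosis when it held UMIs of at least 3 distinct genes of that set. Of 36509 cells, 3448 were scored, 1658 for S phase only, 1090 for both sets and 700 for mitosis only. The threshold cuts a continuous range, since 4440 cells held 2 S-phase genes and 1201 held 3, while 1237 held 2 mitotic genes and 292 held 3. Thinned cells that the other genes left unscored still averaged 0.343 UMIs of Pcna and 0.105 of Mcm3. The part of such background in the S-phase scores was not tested. Scores were held by 0 of 359 neuron-like cells pooled over the mice, which allows a share of up to 0.836% by counting error alone. That limit applies to the thinned score and is not one on dividing neurons.

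Microglia-like cells supplied 33.47% of the scored cells because they were the most numerous, although only 5.58 ± 1.09% of them held the S-phase score and 2.98 ± 0.856% the mitotic score. T/NK cell-like cells had the largest mean S-phase share of these classes, 30.1 ± 5.70%, and border-associated macrophage-like cells had 21.1 ± 5.00%. Their mitotic shares, 14.7 ± 5.48% and 15.1 ± 4.16%, lay within their spread of each other and of that of fibroblast-like cells. In fibroblast-like cells the S-phase share was 11.5 ± 5.21% and the mitotic share 14.2 ± 6.36%. Endothelial-like cells had 4.10 ± 1.10% and 1.43 ± 1.13%. Without thinning the fibroblast-like shares were 75.1% and 37.2% and the neuron-like shares 12.8% and 2.59%, with median depths of 42386 and 17982 UMIs.

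The kinds of score that scored cells held varied between classes, which was not tested. Of 281 scored endothelial-like cells, 73.67% held the S-phase score alone. Of 414 scored fibroblast-like cells, 18.12% held S phase alone, 48.79% both and 33.09% mitosis alone, and of 253 scored astrocyte-like cells 58.89% held both. Microglia-like cells were intermediate, with 56.67% S phase alone. The scored cells had been deeper before thinning, with median UMIs of 16026 in unscored cells, 21188 in S phase alone, 40841 in both and 30733.5 in mitosis alone, and the part of depth and of cell size in these shares was not tested.

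**Figure D3:**
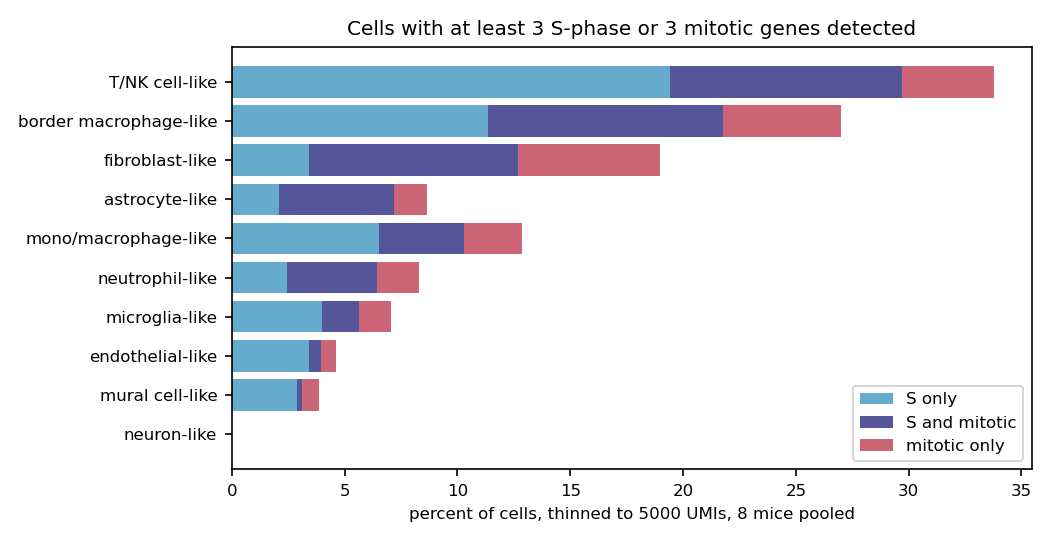
Percent of cells of each class, thinned to 5000 UMIs and pooled over 8 mice, with at least 3 S-phase genes, at least 3 mitotic genes or both. T/NK cell-like cells have the longest bar, and the S-phase segment makes up most of the bar of endothelial-like cells.

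How strictly each gene was tied to scored cells was described by leaving it out of the score and asking which share of its thinned UMIs lay in cells scored by the others. The share, as the mean of 8 mice, was 93.9% for Ccna2, 93.3% for the checkpoint kinase Bub1, 92.5% for Ccnb1, 92.2% for Plk1, 89.4% for Top2a and 84.3% for Mki67. Among S-phase genes it was 88.4% for Rrm2 and 85.0% for the nuclease Exo1, but 67.6% for Mcm5, 28.7% for Mcm3, 24.3% for Cdt1 and 22.0% for Pcna. Kif23 (34.4%) and Hmgb2 (37.3%) were the loosest mitotic genes.

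Some genes labelled S phase also had UMIs in cells with the mitotic score alone, a score that does not separate G2 from mitosis. Mcm2 to Mcm7, Pcna, Ccne2, E2f1 and Cdt1 had more UMIs per cell in S-phase-only than in mitosis-only cells in 8 of 8 mice. Rrm2, Tyms, which makes thymidylate, and E2f8 had more in mitosis-only cells in 8 of 8 mice. For Rrm2 the means per cell were 0.0535 ± 0.0216 UMIs in S-phase-only, 1.27 ± 0.172 in cells with both scores and 0.245 ± 0.0818 in mitosis-only cells. Rrm1, the large subunit of the same enzyme, had more UMIs in S-phase-only cells in 1 of 8 mice. The score itself was built from the other members, so these values are a description without a test. The states also pool all classes, in a differing mix. Fibroblast-like cells were 75 of 1658 S-phase-only, 202 of 1090 both and 137 of 700 mitosis-only cells. Endothelial-like cells were 207, 32 and 42 in the same order. The part of this mix in the values was not tested.

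Several regulators outside the 44 genes, picked after their values had been seen, are given for the same states without a test. Here too the states pool classes in a differing mix, so cell class and state are not separated. Ccne1, the cyclin of the G1 to S transition, averaged 1.91 ± 0.787 CPM in unscored, 11.6 ± 2.95 in S-phase-only, 40.0 ± 5.90 in both and 2.67 ± 1.5 CPM in mitosis-only cells. Foxm1 averaged 1.07 ± 0.144, 1.80 ± 0.846, 36.6 ± 2.82 and 23.4 ± 1.86 CPM in the same order. Mybl2 peaked in cells with both scores (18.9 ± 0.970 CPM) and was at 3.79 ± 1.18 CPM in mitosis-only cells. Ccnd1, a growth factor-responsive cyclin, averaged 61.4 ± 10.7 CPM in unscored cells and 297 ± 136 CPM in cells with both scores, whereas Ccnd3 stood at 175 ± 66.6 and 73.5 ± 12.3 CPM. Of the inhibitors, Cdkn2c was at 16.2 ± 2.56 CPM in unscored and 130 ± 19.6 CPM in cells with both scores, and Cdkn1a, which encodes p21, overlapped between the states, at 180 ± 26.6 and 206 ± 43.2 CPM.

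Whether fibrinogen depletion altered division was addressed in each class by comparing ancrod with control mice, with edgeR's quasi-likelihood test on counts summed per mouse and Benjamini-Hochberg adjustment over all genes. No member passed an adjusted p of 0.05 in any class. The clearest tendency lay in fibroblast-like cells, where every one of the 44 genes had a higher fitted level in ancrod mice, with a median log2 fold change of 0.82 (range 0.29 to 1.42). Over all 12847 genes tested there, 49.3% had a positive log2 fold change. The 44 genes rise and fall together in dividing cells, so they are not 44 independent measurements.

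In fibroblast-like cells 0 of 44 genes passed the adjusted threshold in edgeR (0.00778% of all genes did), with a lowest adjusted p of 0.194. At an unadjusted p under 0.05 there were 32, all higher in ancrod (14.9% of all genes passed, 6.9% higher and 8.03% lower). DESeq2 called 11 of the 44 and 1.7% of all genes. An edgeR fit with a replicate block gave 1 member past the adjusted threshold (Rrm2), and its share over all genes is not given here. The CPM of the groups did not overlap for 18 genes, all higher in ancrod, against 3.86% of all genes. Of these, 17 were S-phase genes and the remaining one was Birc5, which encodes survivin of the chromosomal passenger complex. Control mice contributed 228, 170, 38 and 239 fibroblast-like cells and ancrod mice 344, 124, 629 and 508. Without the control mouse with 38 cells, 28 genes had an unadjusted p under 0.05, and without ancrod replicate 4 there were 21. Over all genes these counts were 1977 of 13153 and 1608 of 12711. In batch 1 alone there were 23 (1376 of all 12580 genes tested), with a median log2 fold change of 0.63, and batch 2 held 1 mouse a group. The part of these unequal cell numbers in the result was not tested.

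The summed S-phase genes of fibroblast-like cells were 217, 286, 203 and 283 CPM in the control mice and 384, 502, 343 and 521 CPM in the ancrod mice. Every ancrod mouse lay above every control mouse. The summed mitotic genes were 702, 565, 366 and 728 CPM in control and 1027, 927, 623 and 1567 CPM in ancrod mice, and here the groups overlapped through ancrod replicate 3.

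By role, all 7 genes of nucleotide supply, replication and checkpoint had unadjusted p under 0.05 and groups without overlap (median log2 fold change 0.96), and so did 8 of the 10 licensing and helicase genes, of which 9 had an unadjusted p under 0.05 (median 0.75). Rrm2 had 11.3, 20.7, 7.13 and 20.8 CPM in control and 38.2, 49.0, 28.1 and 55.3 CPM in ancrod mice. This gave a log2 fold change of 1.41 (SE 0.31, edgeR adjusted p = 0.194, and 0.00229 to 0.512 over the alternatives). The lowest ancrod mouse thus stood above the highest control mouse.

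Exo1, which resects DNA ends, had the largest log2 fold change of the genes without overlap, 1.42 (SE 0.38, edgeR adjusted p = 0.204, alternatives 0.0467 to 0.512). Its levels were low, at 1.21, 2.81, 1.10 and 1.18 CPM in control and 3.93, 6.65, 2.95 and 4.68 CPM in ancrod mice, from 44 and 310 UMIs in all. Pcna was at 46.5, 54.8, 46.6 and 59.7 CPM in control and 67.6, 91.0, 73.1 and 88.9 CPM in ancrod mice (log2 fold change 0.63, SE 0.14, adjusted p = 0.194, alternatives 0.0123 to 0.512). Mcm5 was at 7.82, 10.4, 7.13 and 11.7 CPM in control and 13.6, 19.9, 11.6 and 24.8 CPM in ancrod mice, with an overlap of the nearest mice. Its log2 fold change was 0.86 (SE 0.28, edgeR adjusted p = 0.240, alternatives 0.0779 to 0.520).

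The S-phase cyclin and E2F genes were uneven. E2f8 had a log2 fold change of 0.88 (SE 0.30, edgeR adjusted p = 0.245) without overlap, from 2.56, 2.95, 0.548 and 3.82 CPM in control to 5.03, 6.10, 3.86 and 6.72 CPM in ancrod mice. Ccne2 had 0.53 (SE 0.21, adjusted p = 0.283), with the nearest mice of the groups at 7.45 and 7.46 CPM. E2f1 had the smallest log2 fold change of the 44, 0.29 (SE 0.22, adjusted p = 0.560), with 8.77, 14.1, 17.0 and 11.5 CPM in control and 13.6, 18.9, 11.4 and 15.8 CPM in ancrod mice, which overlapped.

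For mitotic genes all 24 fitted log2 fold changes were positive (median 0.76), 14 had an unadjusted p under 0.05 and none passed the adjusted threshold, and the groups overlapped for 23. Mki67 was at 35.5, 22.9, 25.2 and 40.7 CPM in control and 52.1, 53.2, 29.7 and 71.4 CPM in ancrod mice, a log2 fold change of 0.72 (SE 0.27, edgeR adjusted p = 0.280, alternatives 0.124 to 0.519). Top2a was at 68.1, 52.3, 14.8 and 64.8 CPM in control and 105, 109, 58.3 and 155 CPM in ancrod mice (log2 fold change 1.05, SE 0.38, adjusted p = 0.264). In both genes the ancrod mouse with 629 fibroblast-like cells lay within the range of the control mice. Cdk1 had a log2 fold change of 0.96 (SE 0.38, adjusted p = 0.288) and Ccnb1 of 0.77 (SE 0.34, adjusted p = 0.333), with overlapping groups. By role, 5 of 9 mitotic cyclins and kinases, 3 of 6 spindle and midzone, 3 of 3 chromatin, 2 of 2 mitotic exit and 1 of 4 centromere and passenger genes had an unadjusted p under 0.05.

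**Figure D4:**
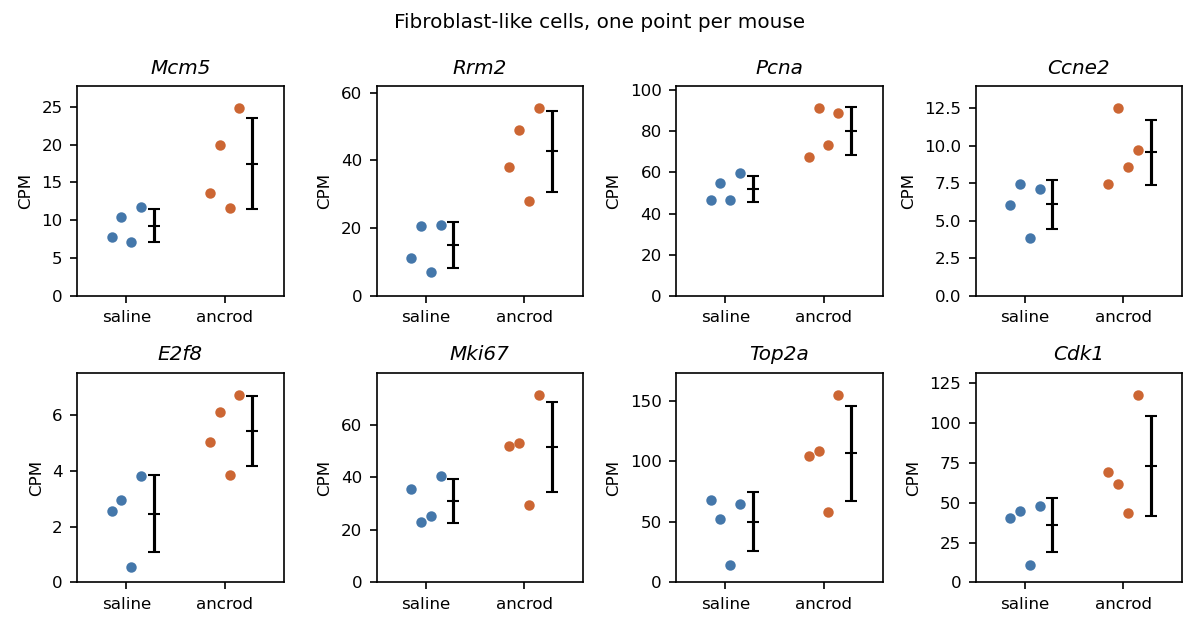
CPM of named genes in fibroblast-like cells, with 1 point per mouse and the mean ± SD of each group of 4 mice beside them, on axes that start at 0. For Rrm2 the 4 ancrod mice (28.1 to 55.3 CPM) lie above the 4 control mice (7.13 to 20.8 CPM), and for Mki67 and Top2a the groups overlap.

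The shares of scored cells moved in the same direction. The S-phase share of thinned fibroblast-like cells was 4.13, 8.70, 8.11 and 9.48% in control and 15.8, 15.1, 10.1 and 20.4% in ancrod mice, without overlap (means 7.60 ± 2.38% and 15.3 ± 4.204%). Thinned to 2000 UMIs, the difference between the groups was 4.00 percentage points. The mitotic share was 9.17, 10.6, 8.11 and 11.6% in control and 15.8, 20.2, 11.3 and 26.6% in ancrod mice, with overlap. Unthinned S-phase shares were 63.6 to 81.6% in control and 74.4 to 79.0% in ancrod mice, which overlapped. The share of thinned fibroblast-like cells with a Mki67 UMI was 5.13 ± 2.78% in control and 11.3 ± 3.90% in ancrod mice (n = 4 each). The difference of 6.20 percentage points did not pass a two-sided exact permutation test (p = 0.0571, adjusted over 9 classes 0.386, smallest possible p 0.0286). It was 6.43 points in batch 1 and 5.50 points in batch 2. The unthinned share was 17.9% over all mice, against 2.89% in neuron-like cells.

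Fibroblast-like cells were also described by cluster. In the Col1a1-led cluster the S-phase sum was 356 ± 76.0 CPM in control (n = 3) and 584 ± 101 CPM in ancrod mice (n = 4), and in the Col18a1-led cluster 174 ± 48.0 (n = 3) and 301 ± 99.4 CPM (n = 4). The mitotic sum of the Col1a1-led cluster was 1125 ± 336 and 1449 ± 445 CPM, within their spread, and that of the Col18a1-led cluster 376 ± 113 and 658 ± 214 CPM. In a Penk-led cluster the S-phase sum was 258 CPM in the 1 control mouse with enough cells and 296 ± 56.7 CPM in ancrod mice (n = 4). A cluster led by Lum and Mdk had enough cells in no control mouse. The Col1a1-led cluster held 77, 75, 12 and 61 cells in control and 129, 48, 198 and 276 cells in ancrod mice. No test was made within clusters or of their mix. Markers of other classes were summed in fibroblast-like cells too. The 14 T/NK cell markers reached 1.10 to 3.91 CPM in control and 4.44 to 16.8 CPM in ancrod mice, and 8 neuroblast markers, of which 1 was at 0, reached 6.36 to 8.22 and 11.9 to 20.6 CPM, both without overlap. The other 15 lists, among them the 16 fibroblast markers at 27775 to 38693 and 24071 to 30217 CPM, overlapped between the groups. The part of these cells in the result was not tested.

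Regulators in fibroblast-like cells had the same sign in most cases. Of 32 tested, 27 had a positive log2 fold change (49.3% of all genes) and 15 an unadjusted p under 0.05 (14.9%), all higher in ancrod (6.9%), and none passed the adjusted threshold (lowest edgeR adjusted p = 0.194). Ccne1 was at 7.67 ± 0.782 CPM in control and 14.3 ± 2.33 CPM in ancrod mice, without overlap. Ccnd1 was at 31.9 ± 9.05 and 53.0 ± 9.97 CPM, and the inhibitor Cdkn1c at 299 ± 184 and 251 ± 38.5 CPM, both with overlap. These 3 genes were picked after their values had been seen.

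**Figure D5:**
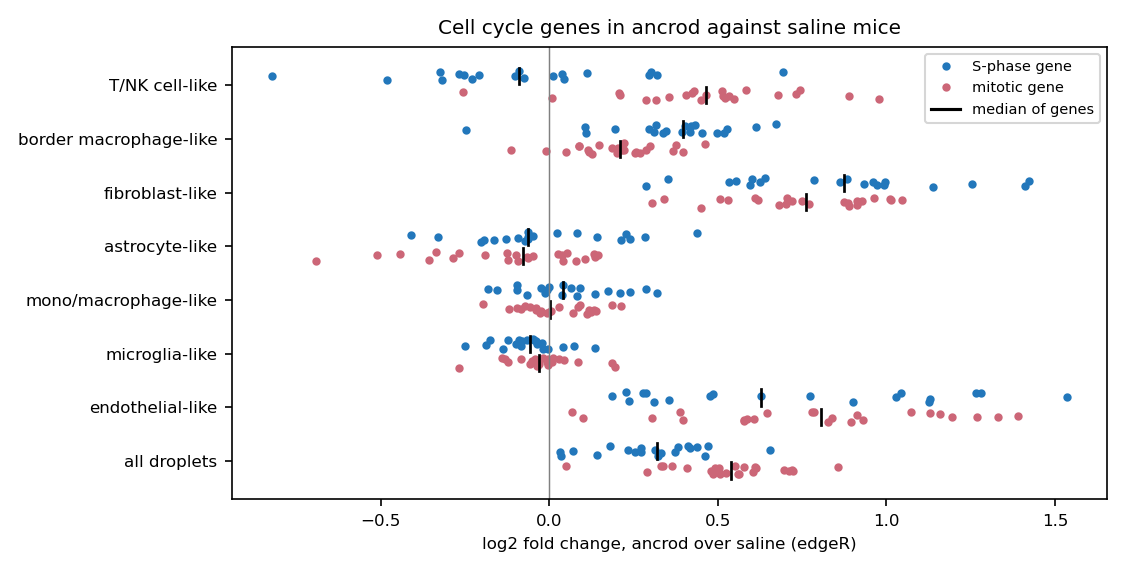
Log2 fold change of each gene in ancrod over control mice (edgeR) by class, with S-phase and mitotic genes apart and a line at the median of each set. Points of fibroblast-like cells, endothelial-like cells and all droplets lie to the right of 0 throughout, and those of microglia-like cells lie around 0.

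Endothelial-like cells also had higher fitted levels in ancrod mice for all 43 genes tested (51.6% of all genes), at a median log2 fold change of 0.78, with wide errors. None passed the adjusted threshold in edgeR (0% of all genes, lowest adjusted p = 0.505) or in DESeq2 (0.15% of all genes), and 10 genes, all of S phase, had an unadjusted p under 0.05 (8.92% of all genes did). Mcm3 was without overlap (2.48% of all genes were so and higher), at 11.3, 13.1, 11.4 and 11.5 CPM in control and 15.1, 13.2, 16.1 and 21.0 CPM in ancrod mice (log2 fold change 0.48, SE 0.14, adjusted p = 0.505). Mki67 averaged 7.89 ± 5.59 and 14.9 ± 9.34 CPM. The mix of clusters in this class also differed. The Ackr1-led cluster held 120, 168, 199 and 172 of 1241, 1034, 1310 and 1054 cells in control mice. In ancrod mice it held 122, 127, 114 and 157 of 388, 652, 552 and 815 cells. Its S-phase sum was 203 ± 43.7 CPM in control and 305 ± 88.2 CPM in ancrod mice. That of the Car4-led cluster was 175 ± 20.6 and 185 ± 22.2 CPM. The part of the cluster mix in the class sums was not tested. The median depth of endothelial-like cells was 7351 to 9767.5 UMIs in control and 11873 to 17179.5 UMIs in ancrod mice, also without overlap, and its part was not tested. The 12 microglia markers, summed in endothelial-like cells, reached 198 to 222 CPM in control and 166 to 195 CPM in ancrod mice, without overlap. The 16 fibroblast markers, of which 1 was at 0, were at 77.1, 64.8, 58.2 and 76.3 CPM in control and 273, 47.7, 135 and 221 CPM in ancrod mice. The summed mitotic genes of the same mice, in the same order, were 106, 318, 165 and 123 CPM in control and 372, 127, 276 and 352 CPM in ancrod mice. The 12 astrocyte markers reached 123 to 196 CPM in control and 192 to 281 CPM in ancrod mice. The part of these markers in the result was not tested.

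The endothelial count rested on single mice. It was 1 without ancrod replicate 4, 4 without saline replicate 1 or saline replicate 4, 5 without ancrod replicate 3, 6 without saline replicate 3, 29 without saline replicate 2 and 31 without ancrod replicate 2. The count over all genes moved too, from 766 to 818 without ancrod replicate 1, ancrod replicate 4, saline replicate 1 or saline replicate 4 to 1415 of 12716 without saline replicate 2 and 1894 of 12893 without ancrod replicate 2. In batch 1 alone 1 gene had an unadjusted p under 0.05 (585 of all 12557 genes tested), with a median log2 fold change of 0.44.

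In border-associated macrophage-like cells most genes of both phases had a higher fitted level in ancrod mice. Of 20 S-phase genes 19 had a positive log2 fold change (48.6% of all genes, median 0.40) and 9 an unadjusted p under 0.05, of which 7 were licensing and helicase genes, and of 24 mitotic genes 22 were positive (median 0.21) and 0 had an unadjusted p under 0.05. The difference between the sets was not tested, and the ratio of the S-phase to the mitotic sum overlapped, at 0.690 ± 0.134 in control and 0.744 ± 0.162 in ancrod mice (SD, n = 4 each). Over all genes 6.37% had an unadjusted p under 0.05, and no member passed the adjusted threshold in edgeR (0% of all genes, lowest adjusted p = 0.621) or DESeq2 (0.0501%). Rrm1 was at 27.7, 32.7, 36.9 and 50.5 CPM in control and 60.5, 65.6, 53.0 and 56.5 CPM in ancrod mice (log2 fold change 0.61, SE 0.16, adjusted p = 0.621), and its groups did not overlap (1.86% of all genes, higher). Of the 17 marker lists summed in these cells, the groups overlapped in each. The lists with the largest ratio of ancrod to control means were those of fibroblasts, neurons and astrocytes, and those of T/NK, mural, microglia, dendritic and erythroid cells were lower on average in ancrod mice. So was the class's own list: the 10 border-associated macrophage markers were at 6713 to 7787 CPM in control and 6295 to 7397 CPM in ancrod mice. The 16 fibroblast markers, 2 of them at 0, reached 15.98 to 33.7 CPM in control and 31.4 to 67.8 CPM in ancrod mice, the 10 neuron markers, 3 of them at 0, reached 6.26 to 9.58 and 8.04 to 21.9 CPM, and the 12 astrocyte markers reached 28.1 to 72.0 and 65.8 to 288 CPM. Their part in the result was not tested. Mki67 was at 86.8, 78.0, 79.2 and 108 CPM in control and 95.3, 114, 105 and 95.9 CPM in ancrod mice, which overlapped.

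The share of thinned border-associated macrophage-like cells with the S-phase score was 17.2, 13.7, 15.3 and 22.2% in control and 23.4, 25.9, 25.6 and 25.7% in ancrod mice. Thinned to 2000 UMIs, the difference was 4.91 percentage points. At 5000 UMIs the groups did not overlap, but the unthinned shares, 38.6 to 58.7% and 46.8 to 63.5%, did. The gene count was 2 without ancrod replicate 2 or saline replicate 3, 3 without saline replicate 1 and 18 without saline replicate 4, while that over all genes ranged from 444 of 10078 without ancrod replicate 3 to 811 of 10093 without saline replicate 4. In batch 1 alone it was 21 (868 of all 9734 genes tested), with a median log2 fold change of 0.52 over the 44 genes. The share with a Mki67 UMI was 12.7 ± 2.21% in control and 17.1 ± 2.94% in ancrod mice (n = 4 each, two-sided exact permutation p = 0.0857), and the difference was 6.42 points in batch 1 and -1.40 points in batch 2.

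In T/NK cell-like cells the mitotic genes were mostly positive and the S-phase genes mixed. Of 23 mitotic genes tested, 22 had a positive log2 fold change (50% of all genes, median 0.47) and 8 an unadjusted p under 0.05, and of 19 S-phase genes 8 were positive and 11 negative (median -0.09). The difference between the sets was not tested, and the ratio of the S-phase to the mitotic sum overlapped, at 0.955 ± 0.277 in control and 0.636 ± 0.210 in ancrod mice (SD, n = 4 each). Over both sets 10 genes had an unadjusted p under 0.05 (3.6% of all genes did), and none passed the adjusted threshold in edgeR (0% of all genes, lowest adjusted p = 0.9999) or DESeq2 (0.0245%). Chek1, the replication checkpoint kinase, was at 14.6, 30.5, 14.6 and 20.3 CPM in control and 13.6, 12.7, 8.77 and 9.24 CPM in ancrod mice (log2 fold change -0.82, SE 0.31), with every ancrod mouse below every control mouse (0.991% of all genes). Mki67 averaged 113 ± 36.5 and 173 ± 54.6 CPM, with overlap. The count of 10 became 1 without ancrod replicate 3, 3 without ancrod replicate 4, 4 without saline replicate 3 and 5 without ancrod replicate 1, while that over all genes ranged from 261 of 8236 without ancrod replicate 1 to 452 of 8213 without saline replicate 3, and it was 6 in batch 1 alone (304 of all 8261 genes tested).

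In microglia-like, astrocyte-like and monocyte/macrophage-like cells the median differences were near 0. The median log2 fold changes were -0.04, -0.06 and 0.02, and 10, 17 and 24 of 44 genes were positive (49.7%, 49.1% and 50.3% of all genes). In microglia-like cells 17 of 20 S-phase and 17 of 24 mitotic genes were negative, with log2 fold changes from -0.27 to 0.20. Those of the 44 genes ran from -0.69 to 0.44 in astrocyte-like and from -0.20 to 0.32 in monocyte/macrophage-like cells. No gene reached an unadjusted p under 0.05 in edgeR (4.03%, 3.75% and 2.83% of all genes did) or was called by edgeR (0% of all genes) or DESeq2 (0.0152%, 0.0158% and 0.0436%). In astrocyte-like cells the count at an unadjusted p under 0.05 became 8 without ancrod replicate 1 (560 of all 12621 genes) and 1 without saline replicate 1 (331 of 12691). It became 2 in microglia-like cells without ancrod replicate 2 (601 of 13341) and 1 in monocyte/macrophage-like cells without ancrod replicate 1 (464 of 11424). In batch 1 alone the median log2 fold change in astrocyte-like cells was 0.26 over the 44 genes and -0.0038 over all genes. The share of thinned microglia-like cells with a Mki67 UMI was 3.32 ± 1.14% in control and 3.50 ± 0.813% in ancrod mice (n = 4 each, two-sided exact permutation p = 0.743). In mural cell-like cells 6 genes and in neutrophil-like cells 5 passed the filter on low counts. Of these, Mcm4 in mural cell-like cells had an unadjusted p under 0.05 (log2 fold change -0.69, 6.43% of all genes) and none in neutrophil-like cells did (5.01% of all genes), and none was called by edgeR (0%) or DESeq2 (0.0105% and 0%).

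Whether the ancrod effect in fibroblast-like cells differed from that in other classes was tested for Mki67 and Mcm5 against 4 classes, with an exact permutation test, two-sided, of the within-mouse difference of log2(CPM + 1). For Mcm5 the effect exceeded that in microglia-like cells by 0.96 (exact permutation p = 0.0286, adjusted over 8 tests 0.229). For Mki67 the excess was 0.78 (exact permutation p = 0.171, adjusted 0.320). Against astrocyte-like cells the excess was 1.05 for Mcm5 (exact permutation p = 0.257, adjusted 0.343) and 1.26 for Mki67 (exact permutation p = 0.143, adjusted 0.320). Against monocyte/macrophage-like cells it was 0.79 for Mcm5 (exact permutation p = 0.114, adjusted 0.320) and 0.57 for Mki67 (exact permutation p = 0.2, adjusted 0.320). Against endothelial-like cells the differences were 0.07 and -0.03. None passed after adjustment. The smallest p this exact permutation test can give, 0.0286, becomes 0.229 when reached by 1 of the 8 tests. A difference in 1 test alone therefore could not pass. No class was shown to differ from fibroblast-like cells in its effect, or to match them.

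Over all kept droplets, which mix the number of cells of each class with the level per cell, all 44 genes had a higher fitted level in ancrod mice (47.6% of all genes did), with a median log2 fold change of 0.43. None passed the adjusted threshold in edgeR (0.0123% of all genes), 25 had an unadjusted p under 0.05 (20.1% of all genes) and DESeq2 called 16 (8.09%). Groups did not overlap for 14 genes, all higher in ancrod (5.77% of all genes). Cdc20 had the largest of these changes, from 9.68, 11.2, 7.79 and 12.3 CPM in control to 18.5, 13.9, 19.4 and 23.8 CPM in ancrod mice (log2 fold change 0.86, SE 0.19, edgeR adjusted p = 0.112). Fewer or more cells of a dividing class and a change of RNA per cell cannot be told apart in this sum. Free RNA held 270, 334, 319 and 323 CPM of summed S-phase genes in control and 359, 263, 361 and 312 CPM in ancrod mice, with overlap. Its summed mitotic genes were at 318, 337, 304 and 431 CPM in control and 481, 299, 434 and 556 CPM in ancrod mice, so that 3 of 4 ancrod mice lay above every control mouse. The part of free RNA in the result was not tested.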

How the data were processed

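Single-cell RNA was measured in 8 mice with 10x 3′ v3.1 libraries, 1 per mouse. The deposited UMI counts per gene and barcode were made by the authors with Cell Ranger 7.1.0 and STAR on GRCm39, and include exonic and intronic reads. Levels of single genes are not compared with each other, since intronic priming and length differ. Ratios of summed genes are compared between classes and groups only. The authors' cell annotation was not used.

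Kept droplets had at least 2000 UMIs and less than 20% mitochondrial UMIs (5080 to 6277 per mouse), and doublets were removed by similarity to simulated doublets at 0.8% per 1000 cells. Cells were clustered with 3000 variable genes, 30 principal components, 20 neighbours and Leiden resolution 2 (leidenalg 0.10.2, seed 1), which gave 52 clusters. The 541 genes kept out of clustering were the members, a list of 250 cell cycle genes, 101 histone genes and 417 genes correlated with the members (r above 0.2), with overlaps. Names came from marker lists. Sums per mouse and class (at least 20 cells) were tested with edgeR 4.0.16 (quasi-likelihood, TMM, no block, Benjamini-Hochberg over all genes), with DESeq2 1.42.0 as an alternative. Only the edgeR test was checked on simulated data. R 4.3.3, Python 3.11.15, numpy 2.4.6 and scipy 1.17.1 were used. Shares were computed after thinning to 5000 UMIs, free RNA from droplets with at most 100 UMIs, and class differences on log2(CPM + 1). Intervals and floors cover counting error only.

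The threshold was 0.05. Members, regulator and marker lists were chosen with earlier results of these data known. Genes named in full were Mki67, Top2a, Cdk1, Ccnb1, Mcm5, Rrm2, Pcna, Ccne2, E2f1 and E2f8, any member past the adjusted threshold, and per class the largest change among members whose groups did not overlap. Other members are given by role. Each mouse is a separate animal. Alternatives were another test, normalization, filter, dispersion method, block, batch covariate, batch 1 alone, droplet cut, doublet treatment, clustering, thinning, pseudocount and each mouse left out.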

Additional observations from a re-analysis of the deposited data

Results flagged for a closer look

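In groups of 4 mice, 3 of 50 groups held a mouse far from the others, where chance gives about 1 in 20. All were in mural cell-like cells, the class with few cell cycle UMIs. The summed mitotic genes without Hmgb2 reached 334.32 CPM in ancrod replicate 3. The share of thinned cells with a Mki67 UMI was 0.813% in saline replicate 1 and 0.952% in ancrod replicate 3, and 0 in the other mice of each group.

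The ancrod effect on Mcm5 differed between fibroblast-like and microglia-like cells by 0.9589 on the log2 scale, at a two-sided exact permutation p of 0.0286, the smallest 4 against 4 mice can give. After adjustment over 8 tests, chosen after seeing the data, p was 0.229.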

How the results depend on the processing

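For members past the adjusted threshold, DESeq2 gave 11 in fibroblast-like cells and 16 over all droplets, where edgeR gave 0. Mice with the same replicate number did not deviate together (r from -0.434 to 0.231), so the numbers were not taken as pairs. A replicate block gave 1 member past the adjusted threshold in fibroblast-like cells (Rrm2), and changed the count at an unadjusted p under 0.05 to 1 in astrocyte-like and 5 in endothelial-like cells. Shares over all genes under this block are not given here, so its counts are not read as results on the members. Batch 1 alone gave unadjusted counts of 21 in border-associated macrophage-like, 1 in endothelial-like, 6 in T/NK cell-like, 2 in mural cell-like and 6 in neutrophil-like cells. Other unadjusted counts that moved were 2 in astrocyte-like cells with mitochondrial UMIs under 10%, 2 in monocyte/macrophage-like cells at Leiden resolution 1, 3 in T/NK cell-like cells with doublets kept, 11 in mural cell-like and 19 in neutrophil-like cells with no filter on low counts, 0 and 1 in these with at least 5000 UMIs, and 1 in neutrophil-like cells with the legacy quasi-likelihood and with the batch covariate. Shares over all genes are not given for these settings, nor for batch 1 alone in mural cell-like and neutrophil-like cells. Such counts are therefore not read as results on the members.

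Leaving out each mouse in turn, the unadjusted counts ranged from 0 to 8 in astrocyte-like, 2 to 18 in border-associated macrophage-like, 1 to 31 in endothelial-like, 21 to 41 in fibroblast-like, 0 to 2 in microglia-like, 0 to 1 in monocyte/macrophage-like, 0 to 2 in mural cell-like, 0 to 4 in neutrophil-like and 1 to 12 in T/NK cell-like cells. Counts over all genes are given above for some of these fits only, and not for the fibroblast-like fit with 41. These ranges are therefore not read as results on the members. The difference in the share of cells with a Mki67 UMI ranged from -0.899 to 1.16 points in astrocyte-like, -0.197 to 0.737 in microglia-like, -0.908 to 1.43 in monocyte/macrophage-like, -0.203 to 0.238 in mural cell-like and -1.12 to 3.39 in T/NK cell-like cells.

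The log2 fold change of Mki67, microglia-like, ranged from -0.25 to 0.072 and the log2 fold change of Mcm5, microglia-like, from -0.22 to 0.0093. The log2 fold change of Mki67, monocyte/macrophage-like, ranged from -0.067 to 0.26, the log2 fold change of Mcm5, monocyte/macrophage-like, from -0.20 to 0.16 and the log2 fold change of Mcm5, astrocyte-like, from -0.64 to 0.21. In batch 1 alone the log2 fold change of Mki67, astrocyte-like, was 0.084 and the log2 fold change of Mcm5, astrocyte-like, was 0.37, and the latter was 0.058 with doublets kept.

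The difference in the Mki67 share turned to -0.137 points in astrocyte-like cells thinned to 2000 UMIs, to -0.226 with doublets kept and -0.628 in batch 1 alone in monocyte/macrophage-like cells, and to -0.815 without thinning in T/NK cell-like cells. Against microglia-like cells, fibroblast-like cells passed with doublets kept, at 0.74 for Mki67 and 0.77 for Mcm5. At Leiden resolution 1 monocyte/macrophage-like cells turned to -0.32 and -0.31, and neuron-like cells no longer passed, at -3.83 and -2.63.

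The difference in the S-phase share was 4.91 points in border-associated macrophage-like, 4.00 in fibroblast-like and 0.801 in neutrophil-like cells thinned to 2000 UMIs. Without thinning it was 11.99 in endothelial-like, 3.89 in microglia-like, 3.61 in mural cell-like and 2.40 in neutrophil-like cells, and it was 3.63 in mural cell-like cells at 2 genes. Without thinning the difference in the mitotic share was 10.7 in border-associated macrophage-like, 6.80 in endothelial-like and 1.52 in microglia-like cells. The cause was not tested in these cases.
Of the alternatives to values that answer a comparison, 374 kept direction and side of the threshold, 30 moved, 6 reversed, 2 weakened and 2 strengthened. With a mouse left out, 321 kept both, 30 moved and 17 reversed. In mural cell-like and neutrophil-like cells 6 and 5 members passed the filter on low counts, and 38 fibroblast-like cells of 1 control mouse limit that class. Total UMIs per library are confounded with treatment, so library depth and treatment cannot be told apart. Median UMIs per kept droplet overlapped, at 10653 to 14406 in control and 13930 to 17575 in ancrod mice, but those of endothelial-like cells did not.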

Other observations

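Neuroblast-like cells, 144 in all and in sufficient number in 4 mice, had high levels of several members, with 173 ± 153 CPM of Mki67 and 277 ± 208 CPM of Top2a (SD, n = 4). The spread between mice was nearly as large as the means. Fbxo5, an inhibitor of the anaphase-promoting complex, averaged 1.95 CPM in unscored cells, 4.49 CPM in cells with the S-phase score alone, 88.2 CPM in cells with both scores and 18.2 CPM in cells with the mitotic score alone. Cdc25c, a phosphatase that activates Cdk1, averaged 0.149, 0.257, 18.04 and 16.7 CPM in the same order. These genes were picked after their values had been seen, and no test was made.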
